A study of Mus musculus with 6 samples.

Results

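The 10 genes described here encode C-type lectin receptors of myeloid cells, and were found by their symbols among 21899 genes of a liver RNA-seq table. They are Clec7a, Clec4d, Clec4e, Clec4n, Clec5a, Clec4a2, Clec12a, Clec4a1, Clec4a3 and Clec10a, and all 10 symbols were present. Liver polyA RNA came from wild-type C57BL6J mice given a methionine- and choline-deficient diet (MCD, 3 libraries) for 6 weeks, or the matched diet with enough of both nutrients (methionine/choline-sufficient, MCS, 3 libraries). The MCD diet is a dietary model of steatohepatitis and the study compared liver gene expression under it with that under the MCS diet. No transgene, deletion or drug is given for either group. The labels do not say that each library came from a separate animal, and each p-value here is set against the spread among these libraries alone, which may be technical.

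C-type lectin receptors are membrane proteins that bind sugars, lipids or endogenous ligands through a C-type lectin-like domain. Receptors of the activating kind signal through the kinase Syk, either by a tyrosine motif of their own or by the adaptors FcRγ and DAP12, and pass the signal on to CARD9, BCL10 and MALT1. Receptors of the inhibitory kind carry an ITIM, a tail motif that recruits phosphatases. In the liver such receptors are carried by Kupffer cells, by monocytes and the macrophages that develop from them, by dendritic cells and by neutrophils.

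Livers on the MCD diet held more transcripts of most of these receptors. Summed over the 10 genes, the normalised read count was 84.1, 64.4 and 152.8 CPM in MCD replicates 1 to 3, against 16.6, 18.4 and 16.4 CPM in MCS replicates 1 to 3 (CPM, with library sizes scaled by TMM). The means were 100.5 ± 46.4 CPM in MCD and 17.1 ± 1.12 CPM in MCS livers (SD, n = 3 each), and the groups did not overlap. Of the 10 genes, 9 had enough counts to be tested by edgeR's quasi-likelihood test, and 8 of these rose in MCD livers at a Benjamini-Hochberg adjusted p under 0.05. The same direction and threshold were met by 14.8% of all 12599 genes tested. None of the 9 fell (9.97% of all tested genes did), 6 rose at an adjusted p under 0.01 (5.98% of all tested genes did), Clec10a did not pass, and Clec5a was not tested. In 9 of the 10 genes every MCD library lay above every MCS library, as it did in 23.9% of the genes tested. The 9 include Clec5a, which was not among the genes tested and had 0 counts in each MCS library. Clec4d and Clec4e passed the filter on low counts only through their MCD libraries, so their place among the tested genes already required a difference. Of the other tested members, Clec10a reached the filter level of 0.485 CPM (before TMM scaling) in 2 MCS libraries and 6 genes reached it in all 3. The median log2 fold change of all tested genes was 0.01. Scaling by library size alone shifted the median of all genes to 0.57, where 93.6% of all calls were higher in MCD livers against 59.7% with TMM, and 8 lectins rose (40.4% of all tested genes did). In liver RNA, fewer cells of a type and less RNA per cell cannot be told apart.

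**Figure D1:**
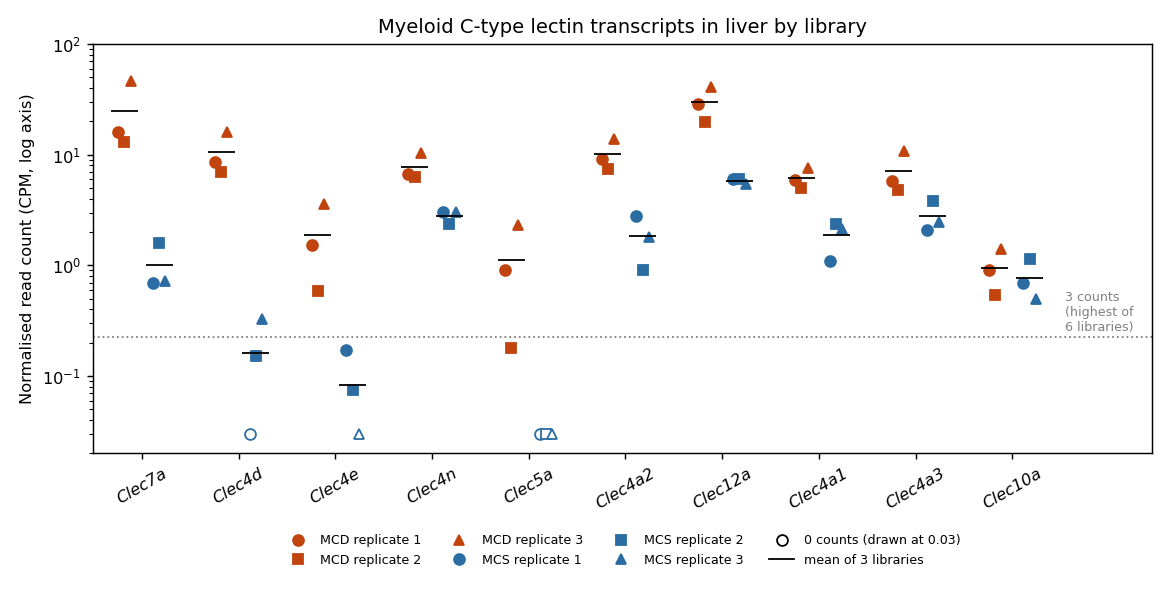
Normalised read count (CPM, log axis) of the 10 lectin genes, with 1 point per library, MCD on the left and MCS on the right of each gene; bars are means of 3 libraries, open symbols are libraries with 0 counts, and the dotted line is the highest level that 3 counts stand for in any library. In 9 of the 10 genes every MCD library lies above every MCS library, and Clec10a is the exception.

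Among the activating receptors, Clec7a was the most abundant in MCD livers. Clec7a encodes dectin-1, the receptor for fungal beta-glucan, which carries its own Syk-binding tail motif. It measured 15.9, 12.9 and 46.0 CPM in MCD livers, against 0.690, 1.59 and 0.717 CPM in MCS livers. MCD replicate 3 stood well above the other MCD libraries, and the lowest MCD library still exceeded every MCS library. The difference on the log2 scale was 4.69 ± 0.64 (SE; adjusted p = 0.00379, edgeR; higher in 3 of 3 MCD libraries). Without MCD replicate 3 it was 3.89.

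Clec4d, which encodes MCL (dectin-3), a partner of Mincle in the recognition of mycobacterial glycolipid, was close to undetected in MCS livers. Its normalised read count was 8.58, 6.92 and 15.9 CPM in MCD livers, against 0, 0.151 and 0.331 CPM in MCS livers. These levels rest on 802 counts summed over the MCD libraries and 8 counts over the MCS libraries. The log2 fold change was 5.95 ± 0.67 (adjusted p = 0.00106, edgeR), rank 23 among all tested genes from the highest down. The ratio of the summed counts, scaled by library size, was 66.9 (95% counting interval 33.8 to 155), which covers counting error only. The fold change was 7.18 (log2) when MCS replicate 3 was left out and 5.34 when MCS replicate 1 was, the library with 0 counts, so its size depends on a few MCS reads while the direction did not change.

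Clec4e encodes Mincle, an FcRγ-coupled receptor for glycolipids and for SAP130, a nuclear protein released by dying cells. It measured 1.53, 0.588 and 3.58 CPM in MCD livers, against 0.173, 0.076 and 0 CPM in MCS livers. The MCS values are 3, 1 and 0 counts and lie at or under the floor of 3 counts, which was 0.104 to 0.227 CPM in these libraries. The log2 fold change was 4.44 ± 0.99 (adjusted p = 0.0141, edgeR), and the ratio of summed counts was 25.01 (95% counting interval 9.57 to 93.0). The call ended without MCS replicate 2 (adjusted p = 0.0601). Its size was 3.58 without MCD replicate 3, 3.82 when MCS replicate 3 was left out and 5.62 when MCS replicate 1 was. On the log2(TPM + 1) scale, which compresses low values, the differences were 1.42 for Clec4e and 3.93 for Clec4d, and both passed with limma.

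Clec5a encodes MDL-1, which signals through DAP12 and is known in mice as a receptor of inflammatory myeloid cells. It had 20, 4 and 66 counts in MCD livers (0.899, 0.181 and 2.30 CPM) and 0 counts in each MCS library. Reads were seen in each MCD library and in no MCS library at this depth, and MCD replicate 2 was near the floor. Against a floor of 3 counts over the MCS group, Clec5a was at least 20.01-fold higher in MCD livers, or at least 8.79-fold without MCD replicate 3, at least 12.6- to 14.6-fold without 1 of the MCS replicates and at least 27.4-fold without MCD replicate 2. With no filter on low counts it passed the test (adjusted p = 0.0133, edgeR). It also passed without MCD replicate 2 (adjusted p = 0.00272) and missed the threshold without any 1 of the MCS replicates (adjusted p = 0.0596 to 0.07002). In these filtered fits Clec5a passed the filter only through its MCD libraries, so its place among the tested genes already required a difference. Without MCD replicate 1 or MCD replicate 3 it was not tested.

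Clec4n encodes dectin-2, an FcRγ-coupled receptor for fungal mannans. It measured 6.70, 6.29 and 10.3 CPM in MCD livers, against 3.05, 2.34 and 3.03 CPM in MCS livers. Of the activating receptors it had the highest normalised count in MCS livers and the smallest difference between diets. On the log2 scale the fold change was 1.46 ± 0.28 (adjusted p = 0.00822, edgeR), and every MCD library lay above every MCS library.

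The promoter sequences of the 4 activating receptors with the largest differences are shown because Clec7a, Clec4d, Clec4e and Clec5a were all near or below 1 CPM on average in MCS livers and were higher together in MCD livers. Each line gives the 250 bases before the annotated transcript start, 5′ to 3′ on the strand of the gene, from RefSeq on build GRCm38.p6. Capitals mark GAGGAA on either strand (read as TTCCTC on the opposite one), a core of the sites bound by PU.1, the transcription factor that macrophages and neutrophils depend on. The windows are chr6:129472780-129473029 (minus strand) for Clec7a, chr6:123261857-123262106 (plus strand) for Clec4d, chr6:123289872-123290121 (minus strand) for Clec4e and chr6:40585806-40586055 (minus strand) for Clec5a.
Clec7a: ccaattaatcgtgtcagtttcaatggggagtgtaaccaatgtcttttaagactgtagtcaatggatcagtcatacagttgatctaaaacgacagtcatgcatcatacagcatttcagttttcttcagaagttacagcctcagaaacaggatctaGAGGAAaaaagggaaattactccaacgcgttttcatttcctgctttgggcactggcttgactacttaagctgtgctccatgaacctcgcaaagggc
Clec4d: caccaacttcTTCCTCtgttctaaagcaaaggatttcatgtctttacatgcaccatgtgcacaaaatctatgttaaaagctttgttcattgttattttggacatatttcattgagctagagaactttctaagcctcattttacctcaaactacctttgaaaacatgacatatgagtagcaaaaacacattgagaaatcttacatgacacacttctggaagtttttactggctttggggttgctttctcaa
Clec4e: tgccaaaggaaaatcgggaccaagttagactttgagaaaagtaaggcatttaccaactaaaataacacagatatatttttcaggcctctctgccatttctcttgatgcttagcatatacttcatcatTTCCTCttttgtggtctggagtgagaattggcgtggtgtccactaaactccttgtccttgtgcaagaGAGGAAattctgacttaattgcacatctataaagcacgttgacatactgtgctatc
Clec5a: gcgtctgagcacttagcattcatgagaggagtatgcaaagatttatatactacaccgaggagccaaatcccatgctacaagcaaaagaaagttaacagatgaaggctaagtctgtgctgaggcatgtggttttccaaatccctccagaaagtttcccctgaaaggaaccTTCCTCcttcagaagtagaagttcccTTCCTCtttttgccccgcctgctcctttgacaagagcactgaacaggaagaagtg

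These letters lay 96 bases before the start of Clec7a and 240 bases before that of Clec4d. Clec4e had them at 123 and at 56 bases, and Clec5a at 81 and at 55 bases. Sequences were matched for 8 of the 10 genes, in 10 windows, and Clec4n and Clec10a had none. GAGGAA was in 8 of the 10 windows, which belonged to 7 of the 8 genes, with Clec4a2 the gene that lacked it; 23.3% of all 32851 promoter windows of the same length held it. TTGCNNAA, letters of C/EBP sites, was in the windows of Clec12a and Clec4e (9.56% of all windows). TGANTCA, letters of AP-1 sites, was in that of Clec12a (6.75% of all windows), and the NF-kappaB consensus was in that of Clec4a1 (17.6%). Both strands were searched. The NF-kappaB consensus can hold GAGGAA within it, and in Clec4a1 the matches lay apart. A match describes the sequence and says nothing of whether a factor binds there.

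The inhibitory receptors were also higher in MCD livers. Clec12a encodes MICL, an ITIM-bearing receptor that binds uric acid crystals. It measured 28.7, 19.9 and 41.0 CPM in MCD livers, against 5.98, 6.04 and 5.40 CPM in MCS livers. The MCS libraries lay close together, and the lowest MCD library exceeded all of them. Its log2 fold change of 2.36 ± 0.26 had the smallest adjusted p of the 9 genes (0.000869, edgeR).

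Clec4a2 encodes DCIR1, an ITIM-bearing receptor of dendritic cells and macrophages that restrains their expansion in mice. It measured 9.21, 7.42 and 13.9 CPM in MCD livers, against 2.82, 0.906 and 1.82 CPM in MCS livers. The groups did not overlap, and the log2 fold change was 2.44 ± 0.41 (adjusted p = 0.00459, edgeR). Of its 50-base words, 6.15% were shared with Clec4a4 or Clec4b1, so a part of its reads could be assigned among these genes. An annotated processed pseudogene overlaps Clec4a2 on the same strand. It is not among the genes counted, and the gene it was copied from was not looked up.

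Clec4a1 and Clec4a3 encode DCIR4 and DCIR3, further receptors of the DCIR family. Clec4a1 measured 5.93, 5.02 and 7.62 CPM in MCD livers, against 1.09, 2.34 and 2.15 CPM in MCS livers, and its log2 fold change was 1.74 ± 0.35 (adjusted p = 0.00971, edgeR). Clec4a3 measured 5.80, 4.75 and 10.9 CPM in MCD livers, against 2.07, 3.85 and 2.48 CPM in MCS livers. The lowest MCD value of Clec4a3 was only 1.23 times its highest MCS value. Its log2 fold change was 1.36 ± 0.39 (adjusted p = 0.0329, edgeR), the smallest among the genes that passed. That call ended without MCD replicate 1 (adjusted p = 0.0639), MCD replicate 3 (0.0788), MCS replicate 1 (0.117) or MCS replicate 3 (0.0924), with log2 fold changes of 0.93 to 1.64 over the 6 fits that left out a library each. Counts of Clec4a1, Clec4a2, Clec4a3 and the related Clec4a4 summed before the fit gave 1.86 ± 0.24 (adjusted p = 0.00168). Clec4a1 and Clec4a3 shared no 50-base word with another gene, and Clec4b1, which shares words with Clec4a2, was not in the sum.

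Clec10a encodes MGL1, a receptor for galactose and N-acetylgalactosamine that is used as a marker of alternatively activated macrophages and of dendritic cells. It measured 0.899, 0.543 and 1.39 CPM in MCD livers, against 0.690, 1.13 and 0.496 CPM in MCS livers, and the groups overlapped. The log2 fold change was 0.32 ± 0.55 (adjusted p = 0.704, edgeR) and turned to −0.075 without MCD replicate 3. Clec10a shares 8.49% of its 50-base words with its near copy Mgl2, and the sum of both genes gave 0.43 ± 0.54 (adjusted p = 0.596). Counts of this gene were low in both diets, so a modest difference would not have been detectable at this depth.

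**Figure D2:**
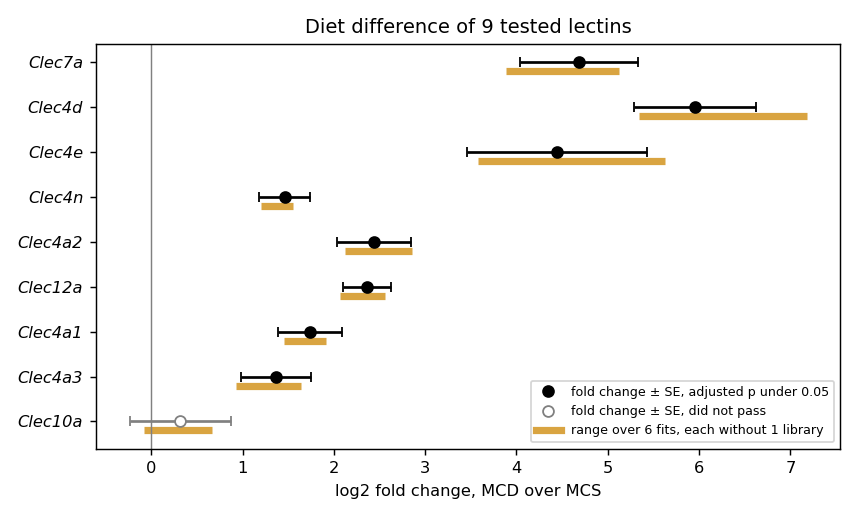
Log2 fold change, MCD over MCS, of the 9 lectins that were tested; points are the fits over all 6 libraries with their SE, and bands span the 6 fits that each left out 1 library. Clec4d (5.95), Clec7a (4.69) and Clec4e (4.44) lie above the other genes, and the band of Clec10a crosses 0.

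The members differed in size of change, and a spread between the MCD libraries was common to all of them. All 10 genes were highest in MCD replicate 3 and all 10 were lowest in MCD replicate 2; MCD replicate 3 was the highest MCD library for 42.4% of all tested genes, and MCD replicate 2 was the lowest for 39.1%. The highest MCD library exceeded the lowest 12.7 times for Clec5a, 6.09 times for Clec4e and 3.57 times for Clec7a, and 1.52 to 2.56 times for the remaining genes. The summed count of the 10 lectins was 2.37 times as high in MCD replicate 3 as in MCD replicate 2. Over the same libraries the ratio was 2.52 for the summed macrophage markers, 2.60 for those of recruited and lipid-associated macrophages, 2.77 for those of monocytes, 3.59 for those of neutrophils, 2.56 for those of lymphocytes and 5.75 for those of sinusoidal endothelial cells. It was 1.41 for dendritic cell, 0.979 for Kupffer cell and 0.618 for hepatocyte markers. The part of cell makeup in the spread of the lectins was not tested.

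Levels can be set beside each other between genes only per transcript length, as TPM. The summed TPM of the 10 genes was 140, 93.0 and 345 in MCD livers, against 16.0, 17.1 and 16.7 in MCS livers. In MCD livers Clec7a led with 83.6 ± 74.2 TPM (SD, n = 3), ahead of Clec12a (27.3 TPM), Clec4a2 (21.8 TPM) and Clec4d (18.9 TPM), an order that held in each MCD library. Clec4n (14.4 TPM) and Clec4a3 (12.96 TPM) were not separated from each other in every library, Clec4a1 followed at 8.94 TPM, and Clec4e, Clec10a and Clec5a came last at 2.44, 1.44 and 1.21 TPM. Clec10a was not separated from Clec4e or from Clec5a in every library, and Clec4e lay above Clec5a in each. In MCS livers the order was different. Clec12a had the highest mean (3.53 ± 0.117 TPM), and Clec12a, Clec4n, Clec4a3, Clec4a2, Clec7a and Clec4a1 (1.64 TPM, the lowest of these) were each not separated from the next in every library. Clec10a (0.698 TPM) lay below these and above Clec4d (0.1703 TPM) and Clec4e (0.0437 TPM), and Clec5a was listed at 0.

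The make-up of the lectin transcripts was compared as shares of their summed TPM. Clec7a held 34.8%, 35.6% and 48.8% of the summed lectin TPM in MCD livers, against 8.25%, 17.2% and 8.76% in MCS livers. Clec4d held 10.42%, 10.40% and 9.34% in MCD livers, against 0%, 0.876% and 2.16% in MCS livers. The MCD and MCS libraries did not overlap for either gene (exact two-sided permutation test p = 0.1, the smallest that 3 libraries against 3 allow, adjusted p = 0.143 over 10 shares). Neither share can pass a threshold of 0.05 in this design.

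Other receptors took smaller shares in MCD livers although their read counts had risen. Clec4n averaged 8.36 ± 1.96% in MCD and 19.3 ± 3.88% in MCS livers. Clec4a3 averaged 6.89 ± 0.389% in MCD and 17.9 ± 4.37% in MCS livers. Clec12a averaged 15.2 ± 2.76% in MCD and 21.3 ± 0.875% in MCS livers (SD, n = 3 each). For these and for Clec10a (0.766 ± 0.107% in MCD and 4.19 ± 1.53% in MCS livers) the diets did not overlap (p = 0.1, exact permutation). Clec5a, like Clec7a and Clec4d, had a larger share in MCD livers (0.469 ± 0.367% in MCD and 0% in MCS livers; p = 0.1, exact permutation). The shares of Clec4a1, Clec4e and Clec4a2 overlapped (p = 0.2, 0.2 and 0.7, exact permutation). Shares sum to the whole, so larger shares of some genes go with smaller shares of others.

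**Figure D3:**
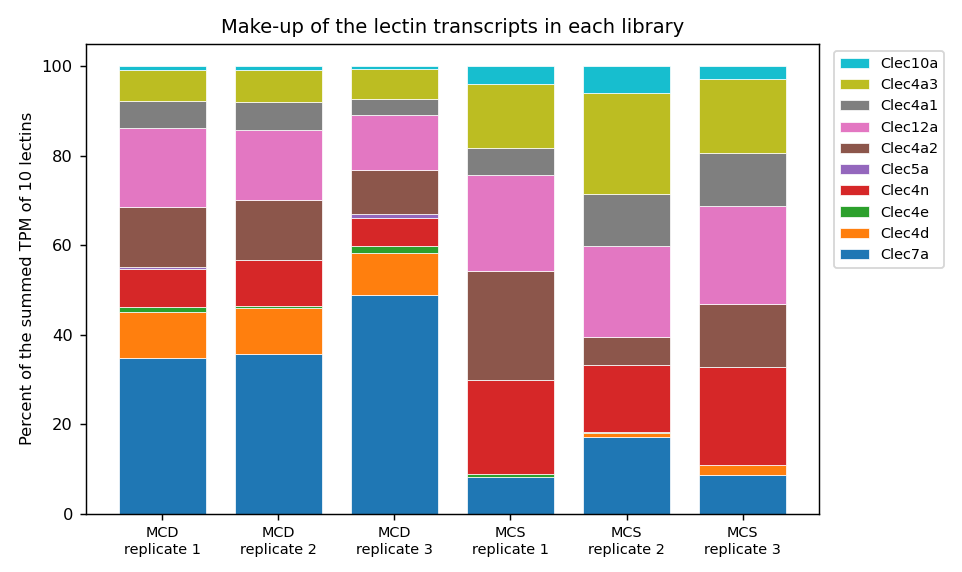
Percent of the summed TPM of the 10 lectins that each gene held, 1 bar per library, MCD libraries on the left. Clec7a makes up 34.8% to 48.8% of the MCD bars and 8.25% to 17.2% of the MCS bars, and Clec10a and Clec4a3 are narrower in the MCD bars.

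Read as activating against inhibitory receptors, the summed TPM of Clec7a, Clec4d, Clec4e, Clec4n and Clec5a was 1.77, 1.96 and 3.02 times that of the ITIM-bearing Clec4a2 and Clec12a in MCD livers, against 0.654, 1.25 and 0.916 times in MCS livers. The diets did not overlap (exact two-sided permutation test p = 0.1, the smallest possible). Without Clec7a the ratio averaged 0.734 ± 0.0813 in MCD and 0.582 ± 0.1003 in MCS livers (SD, n = 3 each), and the libraries overlapped (p = 0.2, exact permutation). This comparison was added after the values were seen.

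The lectins were next set against macrophage markers in the same library (Adgre1, Cd68, Csf1r, Itgam, Fcgr1, Mertk, Cd14, Lyz2 and Aif1), whose sum was 1052, 767 and 1931 CPM in MCD livers, against 195, 201 and 260 CPM in MCS livers. The log2 ratio of the summed lectins to these markers was −3.64, −3.57 and −3.66 in MCD livers, against −3.56, −3.45 and −3.98 in MCS livers. The libraries of the diets overlapped, and the means differed by 0.04, less than the spread among the MCS libraries (−3.63 ± 0.05 in MCD and −3.66 ± 0.28 in MCS livers; SD, n = 3 each). Without MCS replicate 3 the difference was −0.12. Lyz2 held much of that sum, at 818 ± 451 CPM in MCD and 74.2 ± 14.9 CPM in MCS livers (SD, n = 3 each). The choice of markers was narrowed after the values were seen and the overlap of the diets depends on it, so these ratios are a description and no test is given.

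The single receptors differed from one another on this scale. Clec7a was higher relative to the markers in MCD livers, at −6.05, −5.89 and −5.39, against −8.14, −6.99 and −8.50 in MCS livers, a difference of 2.098 with no overlap. Clec10a was 2.15 lower (−10.37 ± 0.15 in MCD and −8.22 ± 0.78 in MCS livers; SD, n = 3 each), Clec4a3 was 1.11 lower (−7.44 ± 0.09 in MCD and −6.33 ± 0.54 in MCS livers) and Clec4n was 0.98 lower (−7.26 ± 0.31 in MCD and −6.28 ± 0.25 in MCS livers), with no overlap in any of the 3. Clec12a, Clec4a1 and Clec4a2 overlapped between the diets (differences of −0.12, −0.63 and 0.14). Clec4d, Clec4e and Clec5a had libraries at 0 and were given no log ratio.

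The direction for the sum depended on the markers chosen. Set against Kupffer cell markers the lectins were 2.78 higher on the log2 scale in MCD livers, and set against markers of recruited and lipid-associated macrophages they were 1.24 lower. The first list summed to 524 to 683 CPM in MCD and 659 to 851 CPM in MCS livers, and the second to 1129 to 2941 CPM in MCD and 90.3 to 190 CPM in MCS livers. Set against recruited-macrophage markers Clec7a was still 0.82 higher in MCD livers, whereas Clec12a was 1.40 lower. Set against Kupffer cell markers, Clec10a, Clec4a3 and Clec4n turned higher in MCD livers, by 0.59, 1.63 and 1.76, so their direction also depended on the markers.

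**Figure D4:**
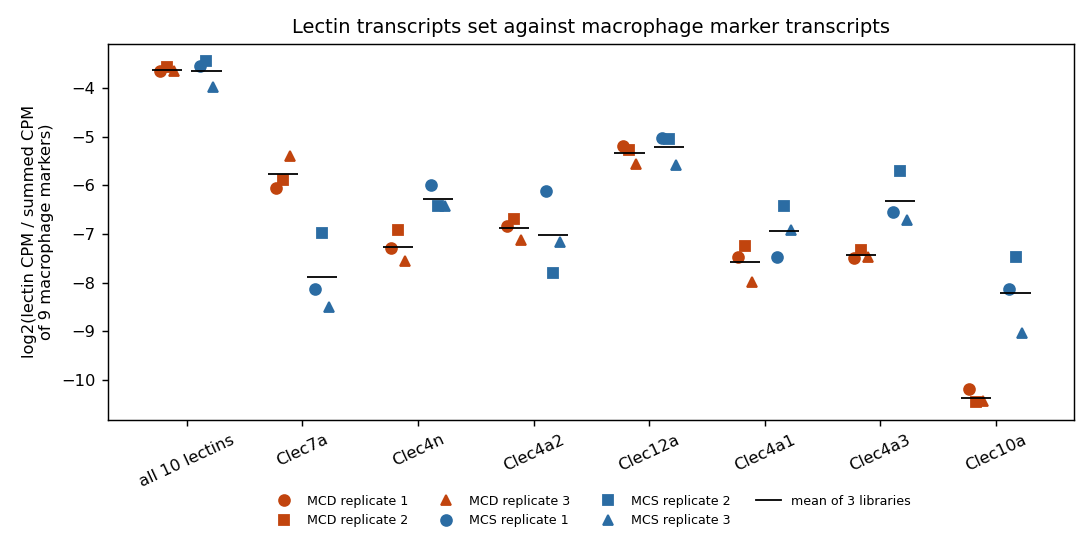
Log2 ratio of the CPM of all 10 lectins, and of the 7 lectins with counts in every library, to the summed CPM of 9 macrophage markers, 1 point per library, MCD on the left; bars are means of 3 libraries. The values of all 10 lectins overlap between the diets, Clec7a is higher in MCD livers, and Clec10a, Clec4a3 and Clec4n are lower.

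Markers of several leukocytes moved with the lectins. Beside the counts that follow, 14.8% of all tested genes rose and 9.97% fell. Of the 9 macrophage markers 8 rose and 1 did not pass. Cd68 (log2 fold change 2.61), Cd14 (2.94) and Lyz2 (3.46) had the smallest adjusted p. Of the 10 recruited and lipid-associated macrophage markers 9 rose and 1 did not pass, and Lgals3, Cd63 and Gpnmb had the smallest adjusted p. Of the 10 monocyte markers 6 rose, with the smallest adjusted p for Chil3, S100a4 and Ccr2, and 4 did not pass, with sums of 37.0 to 102.6 CPM in MCD and 18.3 to 21.3 CPM in MCS livers. Of 9 Kupffer cell markers tested 3 fell (Clec4f, Cd163 and Timd4) and 6 did not pass. Under library size scaling 2 Kupffer cell markers rose and 2 fell, where 40.4% of all tested genes rose and 2.76% fell. In both limma fits on TPM 3 rose and 2 fell, where 43.2% and 45.4% of all tested genes rose and 2.1% and 2.17% fell. Neutrophil markers summed to 8.05 to 28.9 CPM in MCD and 4.305 to 5.95 CPM in MCS livers. Of these, 2 of 5 tested rose (Mmp8 and Csf3r), while Ly6g, the defining marker, had 0 counts in MCD and 4 in MCS livers, and Camp, Ngp and Ltf had at most 6 counts in either diet. Dendritic cell markers summed to 149 to 211 CPM in MCD and 140 to 146 CPM in MCS livers, and 2 of 7 tested rose (Flt3 and Ccr7). Lymphocyte markers summed to 4.97 to 12.7 CPM in MCD and 4.20 to 6.56 CPM in MCS livers, and 2 of 7 tested rose (Cd3e and Cd8a). None of 10 sinusoidal endothelial markers passed, of which Stab2 had the highest mean count. Their sum was 62.9 to 361 CPM in MCD and 128 to 497 CPM in MCS livers, highest in replicate 3 of both diets. Of 9 hepatocyte markers 2 fell (Serpina1a and Fgb) and 7 did not pass, with sums of 62366 to 100914 CPM in MCD and 91126 to 110987 CPM in MCS livers. The calls of Cd163, Timd4, Clec4f, Csf3r, Ccr7, Cd3e, Cd8a, Serpina1a and Fgb ended in 1 to 5 of the 6 fits that each left out 1 library. No MCS library reached the filter level for Chil3, Mmp8, Flt3, Cd3e and Cd8a. Their place among the tested genes already required a difference. No list had a marker at 0 in every library. The part of these cell types in the lectin differences was not tested.

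Of the 20 partners that carry or damp signals of these receptors 12 rose and 8 did not pass, where 14.8% of all tested genes rose. Their median log2 fold change was 1.29 (0.01 over all tested genes). No MCS library reached the filter level for Card9 and Hcst, 2 of the 12 that rose. The place of these 2 among the tested genes already required a difference. The count of partners that rose was 7 without MCS replicate 1 or without MCS replicate 2. Under library size scaling it was 19, where 40.4% of all tested genes rose. The adaptor of Clec4e, Clec4d and Clec4n, Fcer1g (FcRγ), averaged 38.4 ± 10.2 CPM in MCD and 8.51 ± 1.20 CPM in MCS livers (SD, n = 3 each), a difference of 2.18 (log2; adjusted p = 0.000485, edgeR). Tyrobp, which encodes the Clec5a adaptor DAP12, averaged 61.8 ± 23.1 CPM in MCD and 15.4 ± 2.58 CPM in MCS livers (SD, n = 3 each), a difference of 2.01 (log2; adjusted p = 0.00179). Prkcd, the kinase that phosphorylates CARD9, was 1.80 higher (log2; adjusted p = 0.00284). Named after their values were seen, Syk was 1.99 higher (log2; adjusted p = 0.0072) and Card9 2.07 higher from 88 MCD and 13 MCS counts (adjusted p = 0.0493). The call of Card9 held in 1 of the 6 fits that each left out 1 library, the one without MCD replicate 2. That of Hcst, from 45 MCD and 8 MCS counts (adjusted p = 0.0496, edgeR), held in 0 of the 6. Both calls also ended with DESeq2 size factors, with no filter on low counts and with replicate as a term. In the DESeq2 Wald test that of Hcst ended as well. Traf6, Map3k7 and Rela, shared by many other pathways, did not pass and lay between −0.03 and 0.09.

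Of 17 genes induced through CARD9 in myeloid cells, 9 had enough counts to be tested. Of these 5 rose and 4 did not pass, where 14.8% of all tested genes rose. No MCS library reached the filter level for 7 of the 9, among them 4 of the 5 that rose (Egr2, Ccl2, Ccl3 and Cxcl2), so their place among the tested genes already required a difference and the count is a description. Egr2, an early transcription factor of Syk signalling, averaged 6.10 ± 3.30 CPM in MCD and 0.221 ± 0.108 CPM in MCS livers (SD, n = 3 each), a difference of 4.73 (log2; adjusted p = 0.0011, edgeR). The chemokine gene Ccl2 averaged 4.20 ± 0.762 CPM in MCD and 0.129 ± 0.223 CPM in MCS livers (SD, n = 3 each), a difference of 4.85 (log2; adjusted p = 0.0054). On the log2 scale this was 9.45 without MCS replicate 3, which held all 7 MCS counts. Ccl3 had 107 counts in MCD and 0 in MCS livers, at least 23.8-fold higher in MCD livers against 3 counts over the MCS group (adjusted p = 0.00536). The cytokine gene Il1b had 215 counts in MCD and 164 in MCS livers and did not pass (log2 fold change −0.23, adjusted p = 0.713, edgeR). Tnf had 82 counts in MCD and 8 in MCS livers and did not pass (adjusted p = 0.125). Il6 had 3 counts in MCD and 0 in MCS livers, and Csf2 and Csf3 had none in either diet. These genes have other inducers as well, and a difference in them is not a readout of lectin signalling alone.

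Of 10 genes of known endogenous ligands tested, 4 rose, 1 fell and 5 did not pass, with a median log2 fold change of 0.30. Of all tested genes 14.8% rose and 9.97% fell. The count called was 3 without MCD replicate 1, MCD replicate 3, MCS replicate 1 or MCS replicate 3. Under library size scaling 7 rose and 0 fell, where 40.4% of all tested genes rose and 2.76% fell. The risen ones included the dectin-1 ligands annexin A5 and annexin A1 and vimentin. Anxa5 averaged 382 ± 64.8 CPM in MCD and 86.2 ± 8.96 CPM in MCS livers (SD, n = 3 each), a difference of 2.15 (log2; adjusted p = 0.000397, edgeR), Anxa1 differed by 4.10 (adjusted p = 0.00225) and Vim by 2.49 (adjusted p = 0.00459). Uox, the enzyme that degrades uric acid, fell by 0.80 on the log2 scale (adjusted p = 0.0415, edgeR). That call ended when any library other than MCD replicate 2 was left out. It also ended under library size scaling, in both limma fits on TPM, with no filter on low counts and with replicate as a term. Sap130, the Mincle ligand, did not pass (log2 fold change −0.19, adjusted p = 0.386), nor did Xdh, which makes uric acid (−0.03, adjusted p = 0.914). Lgals9, which encodes the listed ligand galectin-9, averaged 338 ± 69.7 CPM in MCD and 477 ± 34.8 CPM in MCS livers (SD, n = 3 each). It was lower in every MCD library than in every MCS library and did not pass (log2 fold change −0.50, adjusted p = 0.111, edgeR). Annexins and vimentin are made by many cell types, so their transcripts here do not show ligand exposed to a receptor.

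Of 39 other C-type lectins listed, 24 were tested, of which 4 rose, 7 fell and 13 did not pass, with a median log2 fold change of 0.31. Of all tested genes 14.8% rose, near the share of these lectins that did, and 9.97% fell. No MCS library reached the filter level for Clec4b1, 1 of the 4 that rose. Its place among the tested genes already required a difference. Under library size scaling 8 rose and 3 fell, where 40.4% of all tested genes rose and 2.76% fell. The count called was 4 without MCD replicate 1, MCS replicate 1 or MCS replicate 2. Hepatic and Kupffer cell genes had the smallest adjusted p among those that fell. Mbl1, a mannose-binding lectin secreted by hepatocytes, averaged 111 ± 25.3 CPM in MCD and 267 ± 73.2 CPM in MCS livers (SD, n = 3 each), a difference of −1.27 (log2; adjusted p = 0.0103, edgeR). Cd302 fell by 0.95 (adjusted p = 0.0104) and Clec4f, the Kupffer cell receptor, by 1.20 (adjusted p = 0.0148) on the log2 scale. The call of Cd302 ended without MCD replicate 1 (adjusted p = 0.0581, edgeR) or MCS replicate 1 (0.0547), and in both limma fits on TPM. That of Clec4f ended without MCS replicate 2 (0.0537), under library size scaling and in both limma fits on TPM. Mrc2, a collagen-binding receptor of mesenchymal cells, rose by 3.33 (adjusted p = 0.00376).

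Position also set some of the receptors side by side. Of the 10 genes, 9 lie on chromosome 6 and Clec10a on chromosome 11, and 6 of them form a run with related genes in the RefSeq gene order of GRCm38.p6. From the side of C3ar1, the complement C3a receptor gene, the order is Clec4a1, Clec4a3, Clec4a4, Clec4b1, Clec4a2, Clec4b2, Clec4n, Clec4d and Clec4e. The log2 fold changes in that order were 1.74 for Clec4a1, 1.36 for Clec4a3, 3.24 for Clec4b1, 2.44 for Clec4a2, 1.46 for Clec4n, 5.95 for Clec4d and 4.44 for Clec4e. Clec4b1, which encodes an activating receptor, had 79 counts in MCD and 5 in MCS livers (adjusted p = 0.0265, edgeR). That call ended when any library other than MCD replicate 2 was left out. Clec4a4 had 2 counts in MCD and 0 in MCS livers and Clec4b2 had 0 in both. On the side of Clec4a1, C3ar1 had a log2 fold change of 3.63 and Necap1, an endocytosis gene that lies between them, had one of −0.67 (adjusted p = 0.0109). The call of Necap1 ended without MCS replicate 2 (0.0565), under library size scaling and in both limma fits on TPM.

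**Figure D5:**
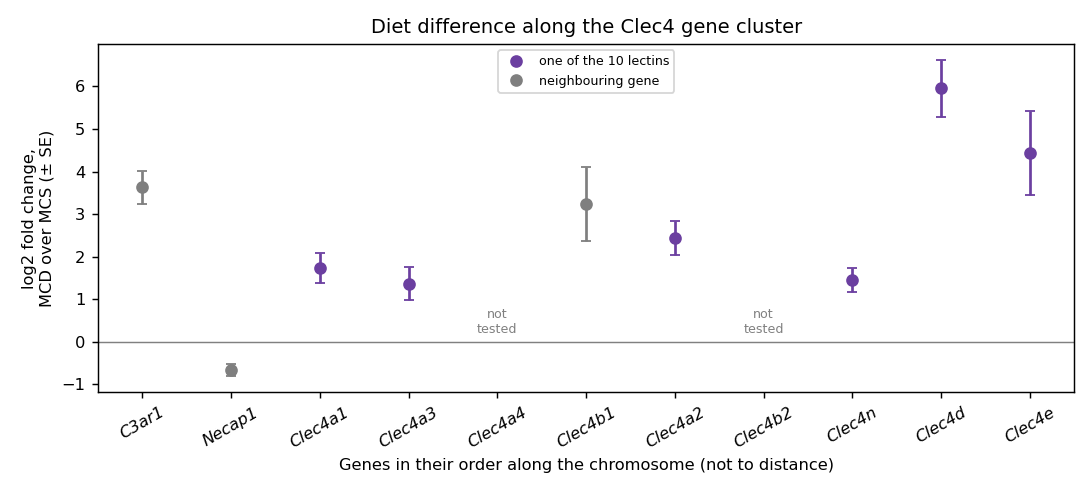
Log2 fold change, MCD over MCS, with SE, of the genes of the Clec4 run in the order in which they lie on the chromosome; lectins described here are purple and neighbouring genes grey. The differences range from 1.36 (Clec4a3) to 5.95 (Clec4d) among the lectins described, and Necap1 at −0.67 lies below 0.

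In a further run, from Clec12a to Clec7a, the genes in between did not all move with the ends. Clec1b, the platelet and endothelial receptor CLEC-2, had a log2 fold change of 0.51 and did not pass (adjusted p = 0.233, edgeR). Clec9a, a receptor of cross-presenting dendritic cells, had one of 1.15 and did not pass (adjusted p = 0.284). Clec1a had 88 counts in MCD and 10 in MCS livers and was not tested, and Clec12b had 0 counts in MCD and 2 in MCS livers.

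The deposited annotation assigns 112 genes to C-type lectin receptor signalling, of which 88 were tested. Without those of the 10 receptors it holds, 84 tested genes remained, of which 32 rose, 4 fell and 48 did not pass. Their median log2 fold change was 0.42. Of all tested genes 14.8% rose and 9.97% fell. No MCS library reached the filter level for 3 of the 32 that rose, whose place among the tested genes already required a difference. In the authors' deposited table, 9 of the 10 receptors had an FDR under 0.05 with higher values in MCD livers, as did 20.5% of all its genes. The log2 fold changes there were 5.45 for Clec7a, 6.79 for Clec4d and 5.80 for Clec4e, and Clec10a had an FDR of 0.355. They are fold changes of mean TPM, not of TMM-scaled counts as above. The 20.5% is a share of all 21899 genes, of which 5317 had 0 counts in every library.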

How the data were processed

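The 6 libraries were grouped by the diet in their titles. Per the submitters' processing notes, build GRCm39 was used with RSEM, StringTie 1.3.1, HISAT2 2.1.0, Bowtie2 2.2.8 and fastp 0.18.0, whose roles are not stated. The authors deposited whole-number counts, yet 64 entries pair a count of 0 with a positive TPM, and the values were taken to be expected counts that the authors had rounded. The TPM values deposited by the authors are per transcript length. The log2 fold change, p-value and FDR in the authors' deposited table rest on a test whose name was not found in the sources used here. Whether counting used strand is not given either, but no antisense gene overlaps a member in the annotation used (GENCODE, build GRCm38). Reads of near copies can be shared out wrongly in such estimates, so shared 50-base words were counted and 2 sums of related genes were fitted. The sum of Clec4a1 to Clec4a4 leaves out Clec4b1, which shares words with Clec4a2, so it covers that sharing only in part.

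Counts were tested in R 4.3.3 with edgeR 4.0.16 (TMM, filterByExpr by diet with a minimum count of 10, robust quasi-likelihood fit, diet as the only term). Of 21899 genes, 5317 had 0 counts throughout and 12599 were tested, with Benjamini-Hochberg adjustment over all of them. SE is the log2 fold change over the square root of F. Total counts were 18443357 to 21285045 per MCD library and 16615469 to 21322771 per MCS library. TMM factors were 1.04 to 1.41 in MCD and 0.797 to 0.873 in MCS libraries. Counting intervals and floors leave out other sources of error. All replicate pairs differed beyond sampling noise (chi-square over degrees of freedom of 14.5 to 162). Shares and the activating to inhibitory ratio were compared by exact two-sided permutation tests over libraries. A gene of the macrophage list is not reported here and was left out of that list and its sums after the values were seen. The ratios of lectins to macrophage markers depend on that choice: with the whole list the diets did not overlap for the summed lectins, and with the narrowed list they do. The permutation test planned for them is not given. DESeq2 1.42.0 and limma 3.58.1 served as alternatives. The scripts were tested on simulated data. The members, gene lists and tests were chosen with earlier results of these data known. Of each list beside the members, the text names the 3 called genes with the smallest p in the direction of most calls, 1 in the opposite direction, and, where no gene was called, the one with the highest mean count. All other genes named were chosen after their values were seen.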

Additional observations from a re-analysis of the deposited data

How the results depend on the processing

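The count of lectins that rose was 6 to 9 over the alternatives run, and none fell in any. Clec7a, Clec4d, Clec12a, Clec4a2, Clec4a1 and Clec4n passed in each of them; Clec4a3 and Clec4e lost their calls only as described, and at an adjusted p under 0.01 (6 lectins). Leaving out a library gave 7 to 9. With a library left out, the log2 fold change of Clec10a ranged from −0.075 to 0.66 and that of its sum with Mgl2 from −0.035 to 0.71, the lowest in both being without MCD replicate 3 (adjusted p = 0.951 and 0.976, edgeR). Of all genes 3117 changed; the count was 1058 at an adjusted p under 0.01, 5443 with library size alone, 5713 with limma on log2(TPM + 1), 5992 on log2(TPM + 0.1), and 1347 to 4435 with a library left out. At an adjusted p under 0.01 the signalling partners counted 7, the ligand genes 3 and the other C-type lectins 1. Signalling partners counted 19 with library size alone, and CARD9 targets 8 with limma on log2(TPM + 0.1). With a library left out, the ranges were 7 to 14 for signalling partners, 5 to 6 for CARD9 targets, 3 to 7 for ligand genes, 4 to 14 for other C-type lectins, 5 to 9 for macrophage, 0 to 3 for Kupffer cell, 1 to 4 for neutrophil, 0 to 2 for lymphocyte and 0 to 4 for hepatocyte markers. The log2 ratio of lectins to macrophage markers, 0.04 higher in MCD livers, was −0.12 (without MCS replicate 3) to 0.14 with a library left out, 0.57 with the mean log2 of the markers, 2.78 against Kupffer cell markers and −1.24 against recruited-macrophage markers. As a share of summed counts in place of TPM, Clec7a was 17.3 percentage points higher in MCD livers, against 28.3 points by TPM. The causes of these differences were not tested.

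The diets share replicate numbers. Same-numbered libraries had correlations of 0.06, 0.15 and 0.25 in their deviations from the mean of their diet. Those of the other pairs were −0.22 to 0.13. Whether the numbers pair the libraries is not known. With the replicate block, 3283 genes changed, 8 lectins rose, 3 ligand genes were called, and 5 sinusoidal endothelial markers and 5 Kupffer cell markers fell, against 0 and 3 without the block. Low MCS counts limit how precisely the difference is known for Clec4d, Clec4e and Clec5a.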
